A study of Homo sapiens with 12 samples.

Results

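The apolipoprotein L family was followed in KYSE70 cells, an established human esophageal squamous cell carcinoma line, through 5 genes: APOL1, APOL2, APOL3, APOL4 and APOL6. They were taken by their gene symbols from a table of 58884 genes. APOL1 drew attention to the family because it was among the largest falls under mitoxantrone, so the values of the family under mitoxantrone are described here without a test. Of the 5 genes, 4 passed the filter on low values (4 or more of the 12 libraries at 10 normalized counts or above, met by 16950 genes in all), and APOL4 did not.

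RNA was sequenced from cells given 20 nM mitoxantrone for 72 h (4 libraries), cells given 10 µM pyrimethamine for 72 h (4 libraries) and untreated control cells (4 libraries). Mitoxantrone is a chemotherapy agent that acts on DNA through topoisomerase II, and pyrimethamine is an antifolate given for parasitic infections. The series names both as inhibitors of NRF2, a transcription factor of antioxidant genes, and asks how each changed mRNA levels. The labels give neither a vehicle for the control cells nor separate cultures for the libraries of a group, so p-values rest on the spread among samples, which may be technical. In RNA from whole cultures, fewer cells that express a gene and less RNA per cell cannot be told apart.

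Apolipoprotein L proteins bind lipids and act on membranes. APOL1 is the secreted member. It circulates on high-density lipoprotein and kills trypanosomes by forming pores in their membranes. The other members lack its secretion signal and stay inside cells. APOL3 breaks up the membranes of bacteria that reach the cytosol, together with the guanylate-binding protein GBP1, and APOL6 carries a BH3-like segment and can trigger cell death when overexpressed. The human genes lie on chromosome 22, and interferon and tumor necrosis factor are known to raise several of them.

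Depth was 47.5 to 94.5 Mreads assigned to genes per library. All 10 squamous epithelial markers taken for the check were detected in every group. KRT5 had a mean of 216959 normalized counts under mitoxantrone, 270042 under pyrimethamine and 219927 in the control. Their levels were not all stable. Under mitoxantrone 4 were called lower (CDH1 the most, with -0.99), 3 higher (SOX2 the most, by 0.98) and 3 were not called. Over all genes tested 35.8% were called lower and 33.5% higher. Under pyrimethamine 4 were called lower and 2 higher, where 26.9% and 26.4% of all genes tested were. Some of these calls changed with the scaling of the libraries. Among 5 immune cell markers, 3 were at 0 reads under mitoxantrone, 0 under pyrimethamine and 1 in the control, and their summed level was 0.954 to 7.42, 19.4 to 32.9 and 1.32 to 15.9 normalized counts in the same order. PTPRC was the 1 immune marker tested. It was called higher under pyrimethamine, at 21.1 against 4.91 normalized counts in the control, a log2 change of 2.14 (limma adjusted p = 0.00615). Markers used for endothelial cells and fibroblasts were not all absent. Their summed level was 186 to 252 and 3877 to 5212 normalized counts under mitoxantrone, 1101 to 1193 and 10529 to 11870 under pyrimethamine, and 967 to 1091 and 14569 to 15368 in the control. Nearly all of it came from VWF and COL1A1, while CLDN5 and COL1A2 were at 0 reads under mitoxantrone and in the control. Of the other endothelial markers, CDH5 averaged 0.463, 2.85 and 3.01 normalized counts and TEK 8.68, 47.9 and 20.2, in the order mitoxantrone, pyrimethamine, control. PECAM1 averaged 0, 4.07 and 0.234 in this order. Of the other fibroblast markers, DCN averaged 0.897, 0.223 and 0 normalized counts, LUM 1.46, 0.223 and 1.08 and PDGFRB 2.17, 14.9 and 11.3 in the same order. TEK was called lower under mitoxantrone and higher under pyrimethamine, and PDGFRB lower under mitoxantrone, and both mitoxantrone calls were lost with quantile normalization. These sums moved with the APOL genes under mitoxantrone, and their part in the result was not tested.

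On GRCh38, in the GENCODE 29 annotation, APOL1 (ENSG00000100342) spans 36253010 to 36267530 of chromosome 22 on the plus strand. APOL2 (ENSG00000128335) spans 36226203 to 36239954 on the minus strand, so that the 2 genes point away from each other with starts 13.1 kb apart. APOL4 (ENSG00000100336, 36189124 to 36204840) and APOL3 (ENSG00000128284, 36140330 to 36166177) follow on the minus strand. APOL6 (ENSG00000221963) lies apart, at 35648395 to 35668409 on the plus strand, 605 kb from the start of APOL1. All are protein-coding, and 0% of their exon sequence overlaps an exon of another annotated gene. Of all distinct stretches of 50 bases in their transcripts, 3.94% for APOL1, 1.91% for APOL2, 0.14% for APOL3, 2.07% for APOL4 and 0.417% for APOL6 also occur in transcripts of other genes. The part that also occurs in another of the 5 genes was 0.608% for APOL1, 0.383% for APOL2 and 0.14% for APOL3, and 0% for APOL4 and APOL6.

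The 5 genes did not contribute equally. Per kilobase of exon sequence, APOL2 was at 479 ± 16.9 normalized counts under mitoxantrone, 1090 ± 26.5 under pyrimethamine and 1101 ± 19.4 in the control (SD, n = 4 each), above every other member in all 12 libraries. APOL6 was at 4.63 ± 1.81, 35.8 ± 3.26 and 63.8 ± 7.08 normalized counts per kilobase in the same order of groups (SD, n = 4 each). APOL1 was at 1.60 ± 0.342, 43.5 ± 7.02 and 59.1 ± 7.35 (SD, n = 4 each). APOL3 was at 2.01 ± 1.43, 44.0 ± 3.57 and 58.9 ± 6.78 (SD, n = 4 each). In control cells APOL6, APOL1 and APOL3 thus lay within their spread of each other per length, and under each drug APOL1 and APOL3 still did. Of the summed normalized counts of the family, which were not scaled for length, APOL2 held 96.3% ± 1.36 under mitoxantrone, 83.04% ± 0.995 under pyrimethamine and 76.2% ± 2.13 in the control (SD, n = 4 each).

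**Figure D1:**
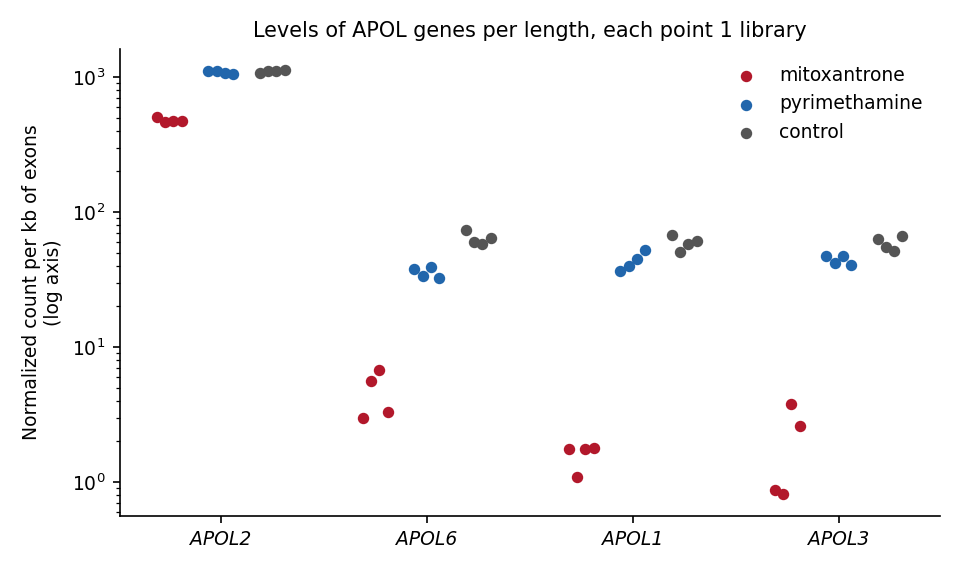
Normalized counts per kilobase of exons (log axis) for APOL2, APOL6, APOL1 and APOL3, each point 1 library, with mitoxantrone left, pyrimethamine middle and control right in each gene. APOL2 lies above the others in all 12 libraries, and APOL1 and APOL3 have overlapping levels in each group.

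APOL4 was barely detected. It had 1 read in pyrimethamine replicate 2 and 0 reads in the other 11 libraries, and a count of 0 allows up to 3 reads in a library. APOL5, a further family gene between APOL6 and APOL3, also had 1 read in all, in pyrimethamine replicate 4. Differences for these genes were not detectable at this depth.

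APOL1, the trypanosome-killing member, was close to the limit of counting under mitoxantrone. It had 6.20, 3.82, 6.18 and 6.28 normalized counts in mitoxantrone replicates 1 to 4, which are 6, 4, 5 and 7 reads, against 239, 176, 202 and 215 normalized counts in control replicates 1 to 4. No mitoxantrone library came near a control library. The mean under mitoxantrone was 5.62 ± 1.20 against 208 ± 25.9 normalized counts in the control (SD, n = 4 each), or 2.70% of it, and the log2 change on the log2(value + 1) scale was -4.99 (SE 0.20). By this change APOL1 ranked 11 among the falls of 16950 genes, after INPP1 with -5.06 and APOL3 with -5.01 and before ANGPT4 with -4.92, while APOL6 ranked 92 and APOL2 ranked 2006. Adding 10 instead of 1 gave -3.80, and quantile normalization gave -4.24.

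APOL3, the intracellular antibacterial member, was lower to a like extent. It had 5.16, 4.77, 22.3 and 15.2 normalized counts in mitoxantrone replicates 1 to 4, against 373, 324, 304 and 389 in control replicates 1 to 4. Replicates 3 and 4 of mitoxantrone were higher than replicates 1 and 2, but all 4 were far under the control libraries. The means were 11.9 ± 8.46 under mitoxantrone and 347 ± 40.0 normalized counts in the control (SD, n = 4 each), with a log2 change of -5.01 (SE 0.31). This change was -4.11 with 10 added instead of 1, and -4.40 with quantile normalization.

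APOL6, the BH3-like member, had 30.0, 56.3, 68.0 and 33.2 normalized counts in mitoxantrone replicates 1 to 4, against 747, 605, 588 and 644 in control replicates 1 to 4. The mitoxantrone libraries were again all lower, at 46.9 ± 18.3 against 646 ± 71.7 normalized counts (SD, n = 4 each), 7.26% of the control mean, with a log2 change of -3.83 (SE 0.19). APOL2, which binds lipids in the cytoplasm, differed least. It had 1753, 1618, 1651 and 1648 normalized counts under mitoxantrone, against 3741, 3877, 3839 and 3891 in the control. The mean was 1668 ± 58.7 under mitoxantrone and 3837 ± 67.7 in the control (SD, n = 4 each), 43.5% of it, with a log2 change of -1.20 (SE 0.04). None of these 4 genes had a mitoxantrone library within the range of the control libraries. The same absence of overlap, in the lower direction, was seen in 31.0% of the 16950 genes tested, and since the family was chosen by this comparison nothing is read from that count.

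**Figure D2:**
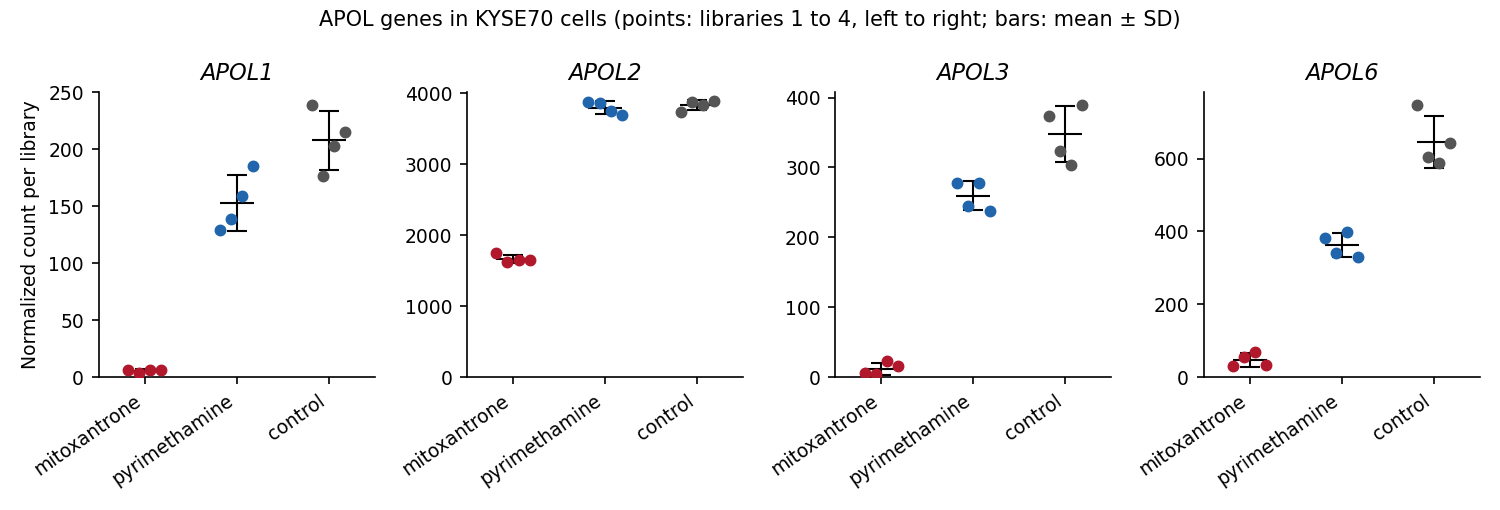
Normalized counts of APOL1, APOL2, APOL3 and APOL6 by library (points, replicates 1 to 4 from left to right) with the group mean ± SD, each panel on its own axis from 0. Mitoxantrone libraries lie under all others in each panel, and pyrimethamine libraries lie under the control libraries for APOL3 and APOL6 but overlap them for APOL1 and APOL2.

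Pyrimethamine against the control is the comparison that the choice of the family did not use, though it shares the control libraries. APOL6 was the member that fell past the test. It had 381, 340, 399 and 330 normalized counts in pyrimethamine replicates 1 to 4, all under the 588 to 747 of the control libraries. The mean fell to 362 ± 33.0 under pyrimethamine, against 646 ± 71.7 normalized counts in the control (SD, n = 4 each), a log2 change of -0.83 (SE 0.19, limma adjusted p = 7.18e-04). Over all alternatives the adjusted p of APOL6 ran between 1.93e-11 and 0.0119.

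APOL3 had 278, 245, 277 and 238 normalized counts in pyrimethamine replicates 1 to 4, against the 304 to 389 of the control libraries, with no overlap. Its means were 260 ± 21.0 under pyrimethamine and 347 ± 40.0 in the control (SD, n = 4 each), a log2 change of -0.42 (SE 0.31, limma adjusted p = 0.266), which did not pass the test. The fit pools 1 spread over all 12 libraries, and the SD of APOL3 on the log2 scale was 1.01 under mitoxantrone, 0.12 under pyrimethamine and 0.17 in the control. With only the 8 pyrimethamine and control libraries in the limma fit the adjusted p was 9.97e-04, and on the whole reads it was 0.0140 in edgeR and 0.00226 in DESeq2, in a range of 9.97e-04 to 0.407 over all alternatives.

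APOL1 had 129, 139, 159 and 185 normalized counts in pyrimethamine replicates 1 to 4, and replicate 4 was above the lowest control library (176). The means were 153 ± 24.7 under pyrimethamine and 208 ± 25.9 in the control (SD, n = 4 each), a log2 change of -0.45 (SE 0.20, limma adjusted p = 0.0664), just outside the threshold of 0.05. The adjusted p was 0.00565 with the 8 libraries alone, 0.00923 in edgeR and 0.00949 in DESeq2, in a range of 0.00565 to 0.176 over all alternatives.

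APOL2 had 3877, 3870, 3749 and 3689 normalized counts in pyrimethamine replicates 1 to 4, within or next to the 3741 to 3891 of the control. The means were 3796 ± 92.3 and 3837 ± 67.7 (SD, n = 4 each), a log2 change of -0.02 (SE 0.04, limma adjusted p = 0.768) with a 95% interval of -0.10 to 0.07 before adjustment, and 0.02 with upper-quartile rescaling. So 1 of the 4 genes tested was called, as lower, where limma called 26.9% of all genes tested lower and 26.4% higher. With the 8 libraries alone 3 were called lower (28.6% of all genes), as in edgeR (28.2%) and DESeq2 (27.2%). Pyrimethamine and control libraries did not overlap for APOL3 and APOL6, the lower direction of which held for 25.4% of all genes tested.

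Members were also compared within each library, as the difference between their log2(value + 1), called a log2 ratio here. The ratio of APOL6 to APOL2 had a mean log2 value of -3.39 ± 0.13 under pyrimethamine and -2.57 ± 0.18 in the control (SD, n = 4 each), and the groups did not overlap. The ratios of APOL6 to APOL3 and of APOL3 to APOL2 were also lower under pyrimethamine without overlap, by 0.41 and 0.40 on the log2 scale. Each of these 3 reached the smallest two-sided exact permutation p that 70 arrangements allow, 0.0286, but adjusted over the 6 pairs compared it was 0.0571 and missed 0.05. The ratios of APOL6 to APOL1 and of APOL1 to APOL2 were lower by 0.38 and 0.43, with overlap (exact permutation p = 0.0571 each, adjusted p = 0.0686). The ratio of APOL3 to APOL1 was 0.77 ± 0.31 under pyrimethamine and 0.74 ± 0.15 in the control (SD, n = 4 each, exact permutation p = 0.943, adjusted p = 0.943). 

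Between the drugs, every mitoxantrone library was under every pyrimethamine library for APOL1, APOL2, APOL3 and APOL6, as for 35.5% of all genes tested. The means under mitoxantrone were 3.67%, 43.9%, 4.57% and 12.9% of those under pyrimethamine, with log2 changes of -4.55 (SE 0.20), -1.19 (SE 0.04), -4.59 (SE 0.31) and -3.002 (SE 0.19) in this order. These values share the mitoxantrone libraries with the comparison that chose the family and are given without a test.

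**Figure D3:**
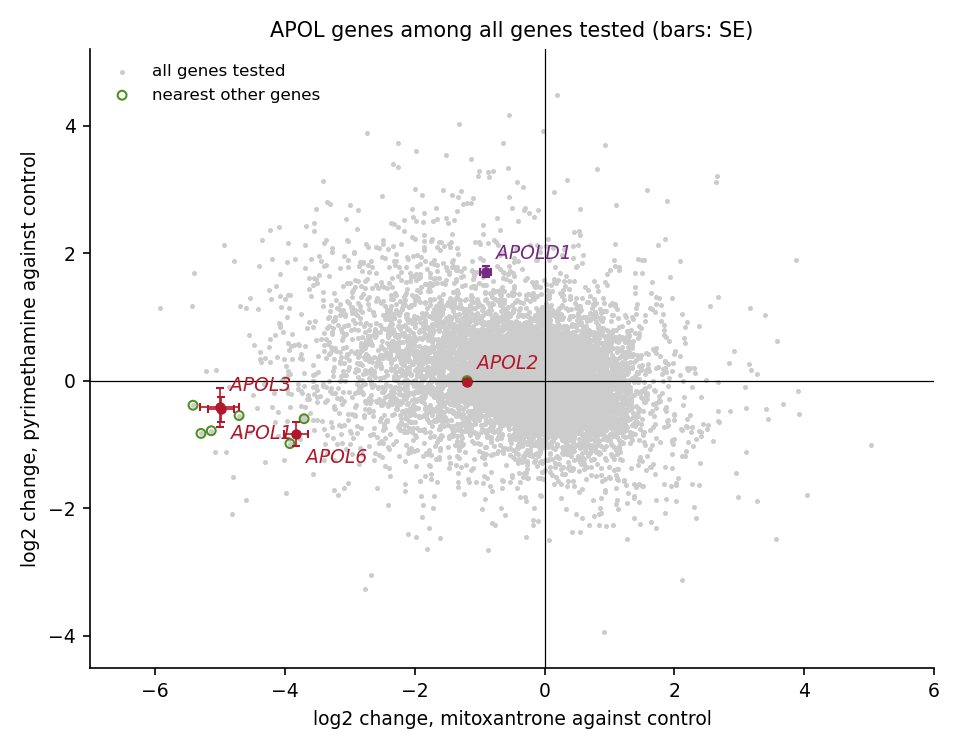
Log2 change of each gene tested under mitoxantrone (horizontal axis) and pyrimethamine (vertical axis), each against the same control libraries, with APOL genes in red (bars: SE), APOLD1 in purple and the genes nearest to the members as open circles. APOL1 and APOL3 lie almost on the same point at the far left, APOL6 lower and to the right of them, and APOL2 on the horizontal line.

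APOLD1, a gene on chromosome 12 with an apolipoprotein L domain that is known as an early response gene of blood vessels, rose under pyrimethamine and fell under mitoxantrone. It had 1206 ± 76.9 normalized counts under pyrimethamine and 369 ± 48.9 in the control (SD, n = 4 each), a log2 change of 1.71 (limma adjusted p = 1.91e-12). Under mitoxantrone it fell to 195 ± 5.50 normalized counts, a log2 change of -0.91 (limma adjusted p = 8.39e-09). Of its exon sequence 25.4% overlaps DDX47 on the same strand, and reads there could not be told apart.

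The genes whose pair of changes was most like that of APOL1 were sought by the distance between the 2 log2 changes, over 13754 genes that have a symbol and reach a group mean of 50 normalized counts. The nearest was its own relative APOL3, at a distance of 0.03. RARRES3, a growth-suppressing gene that retinoids and interferon raise, followed at 0.30 with log2 changes of -4.71 under mitoxantrone and -0.54 under pyrimethamine. Next came AOC1, which encodes diamine oxidase, at 0.37, ACSL5, a long-chain acyl-CoA synthetase gene, at 0.43, and QPRT, of NAD synthesis, at 0.48. APOL6 was nearest to UBA7, which encodes the enzyme that activates ISG15, at 0.18 (-3.92 and -0.98), and then to IL2RB, an interleukin receptor chain gene, at 0.27. APOL2 was nearest to ZC2HC1C at 0.01 and to the growth factor receptor gene FGFR3 at 0.02 (-1.19 and 0.0043). All of these changes share the control libraries, and the distances are a description over 3 groups. APOL1 and APOL3 had means of only 5.62 and 11.9 normalized counts under mitoxantrone, so their distance depends on the added 1. With 10 added instead, their changes under mitoxantrone were -3.80 and -4.11. RARRES3, AOC1, ACSL5, QPRT and IL2RB were also low there, with means of 5.91, 0.758, 1.08, 4.03 and 3.29 normalized counts.

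Genes that surround the family on chromosome 22 were compared as well. Nothing is read from the members beside these genes under mitoxantrone, since that change chose the family. Of 10 other protein-coding genes that start within 300 kb of a member, 9 were tested. Under mitoxantrone 4 fell, 1 rose and 4 were not called, where 35.8% of all genes tested fell and 33.5% rose, 6064 and 5681 genes. With equal library totals the split over all genes was 7210 lower and 4420 higher, and the median of all genes moved to -0.11. With equal library totals 6 of the 9 neighbours were called lower under mitoxantrone, and with quantile normalization 7, as RBFOX2 and TXN2 joined in both and EIF3D in the second. RBFOX2, a splicing factor gene that lies between APOL6 and APOL3, had a log2 change of -0.05 (limma adjusted p = 0.292), though it was called lower at -0.15 when the libraries had equal totals and at -0.12 with quantile normalization. MYH9, the nonmuscle myosin gene next to APOL1, fell to 65730 ± 8995 normalized counts under mitoxantrone, against 85405 ± 2080 in the control (SD, n = 4 each), a log2 change of -0.39 (limma adjusted p = 2.25e-05). Under pyrimethamine MYH9 rose by 0.52 (limma adjusted p = 8.86e-07). MB, the myoglobin gene beside APOL6, fell under mitoxantrone with -2.79 at low counts, 6.97 ± 7.54 against 38.9 ± 11.0 (SD, n = 4 each, limma adjusted p = 1.99e-05). HMOX1, encoding heme oxygenase 1, was the one that rose under mitoxantrone, by 0.45, and it fell under pyrimethamine with -1.09. Of the 9 neighbours tested, 5 fell under pyrimethamine, 1 (MYH9) rose and 3 were not called. Over all genes tested 26.9% fell and 26.4% rose. With upper-quartile rescaling 4 neighbours fell, as EIF3D was no longer called.

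**Figure D4:**
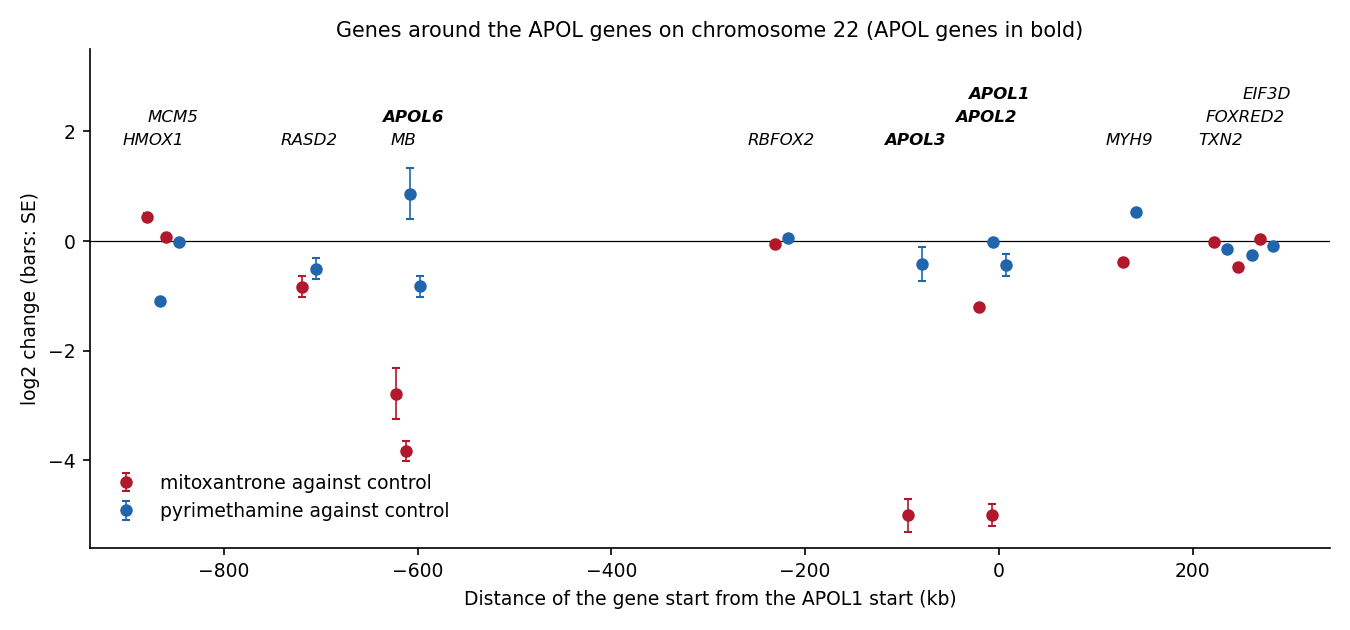
Log2 change (bars: SE) under mitoxantrone and pyrimethamine against the control for genes tested around the APOL genes, by the distance of each gene start from that of APOL1 in kb. APOL1, APOL3 and APOL6 lie at -3.83 or lower under mitoxantrone, APOL2 at -1.20, MB at -2.79 and the other 8 genes between -0.83 and 0.45. Nothing is read from the place of the APOL genes beside their neighbours under mitoxantrone, since that change chose the family.

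Interferon is a known inducer of the family, and 4 lists followed its route. All lists were chosen with earlier results of these data known, so their counts are a description only. Over all genes tested, 35.8% fell and 33.5% rose under mitoxantrone, and 26.9% fell and 26.4% rose under pyrimethamine. None of 8 interferon ligand genes passed the filter. Of 20 genes for receptors, kinases and transcription factors of interferon signaling, 18 were tested, of which 13 fell under mitoxantrone, 2 (IFNAR2 and IFNLR1) rose and 3 did not pass. Their median log2 change was -0.29, against -0.0080 over all genes tested. USP18, a negative regulator of the receptor, fell with -1.05, the transcription factor genes IRF1 and STAT2 with -0.82 and -0.75, and the kinase gene JAK1 with -0.49. JAK2, its partner at the interferon gamma receptor, had 0.13 (limma adjusted p = 0.0766). IL10RB, a receptor subunit gene, had 0.63 at 20.6 normalized counts against 12.9 in the control (limma adjusted p = 0.125). With quantile normalization IL10RB was called higher, at 1.13 (limma adjusted p = 0.00942), and the list had 3 higher and 13 lower under mitoxantrone. With equal library totals it had 2 higher and 14 lower. Under pyrimethamine, 7 of the 18 fell, 4 (IFNGR1, JAK1 and IRF3 among them) rose and 7 were not called. These counts moved with the scaling, to 8 lower and 3 higher with equal library totals and to 5 lower and 5 higher with upper-quartile rescaling. IRF9, a partner of STAT2, had means of 2.78, 3.22 and 3.48 normalized counts under mitoxantrone, pyrimethamine and in the control and was not tested. Of its exon sequence 48.4% overlaps another annotated gene on the same strand, and the part of this in its low count was not tested.

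Genes that type I interferon induces were lower by more. Of 24, 17 were tested and 17 fell under mitoxantrone, where 35.8% of all genes tested fell. Their median log2 change was -2.71. Among them were IFI44 with -4.42 and the antiviral factor genes SAMD9L and SAMD9 with -4.39 and -3.69. OAS2, which makes the activator of RNase L, had -3.54. Under mitoxantrone IFI44, SAMD9L and OAS2 had means of only 3.30, 0.758 and 2.03 normalized counts, so their sizes depend on the added 1. SAMD9 had a mean of 65.0. Under pyrimethamine 6 of these 17 fell, 3 (IFI6, OAS2 and SAMD9) rose and 8 were not called, with a median of -0.14 against 0.0018 over all genes tested. Of 16 genes that interferon gamma induces, 11 were tested, of which 9 fell under mitoxantrone, 1 (WARS) rose and 1 (CIITA) was not called, with a median of -0.96. HLA-F, a class I antigen gene, fell with -2.53, and the immunoproteasome subunit genes PSMB8 and PSMB9 with -2.43 and -1.70. The adhesion molecule gene ICAM1 fell with -1.31. HLA-F and PSMB8 were also at low counts under mitoxantrone, with means of 2.78 and 6.35 normalized counts. Under pyrimethamine 6 of the 11 fell, 1 (ICAM1) rose and 4 were not called, with a median of -0.32. The medians of both lists were below 0 in both comparisons with the 3 other scalings of the libraries, and 17 of the 17 type I genes fell under mitoxantrone with each.

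Among 7 tested genes of cell-autonomous defense and pyroptosis, 6 fell under mitoxantrone and 1 (GBP5) was not called, where 35.8% of all genes tested fell. With quantile normalization GBP5 was called higher, at 0.86. GBP1, the partner of APOL3 against cytosolic bacteria, fell to 24.2 ± 9.63 normalized counts under mitoxantrone, against 257 ± 37.9 in the control (SD, n = 4 each), a log2 change of -3.42 (limma adjusted p = 3.62e-12). GBP3 and GBP2 fell with -2.15 and -1.39, and IRGQ, of the immunity-related GTPase family, with -0.54. Under pyrimethamine GBP1 had -0.08 (limma adjusted p = 0.781), 2 of the 7 genes fell (GBP6 and CASP4), 1 rose (IRGQ) and 4 were not called. Of 10 tested genes on the route of tumor necrosis factor, 6 fell under mitoxantrone, 3 rose (TNFRSF1A, TRAF2 and NFKBIA) and 1 (NFKB1) was not called, with a median of -0.23. RELB and NFKB2, subunits of the noncanonical NF-kB dimer, fell with -1.26 and -0.97, TNFAIP3, a feedback inhibitor, with -0.76 and RIPK1, which encodes a receptor-interacting kinase, with -0.65. Under pyrimethamine 5 of these 10 fell, 1 (RELA) rose and 4 were not called, where 26.9% of all genes tested fell and 26.4% rose.

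**Figure D5:**
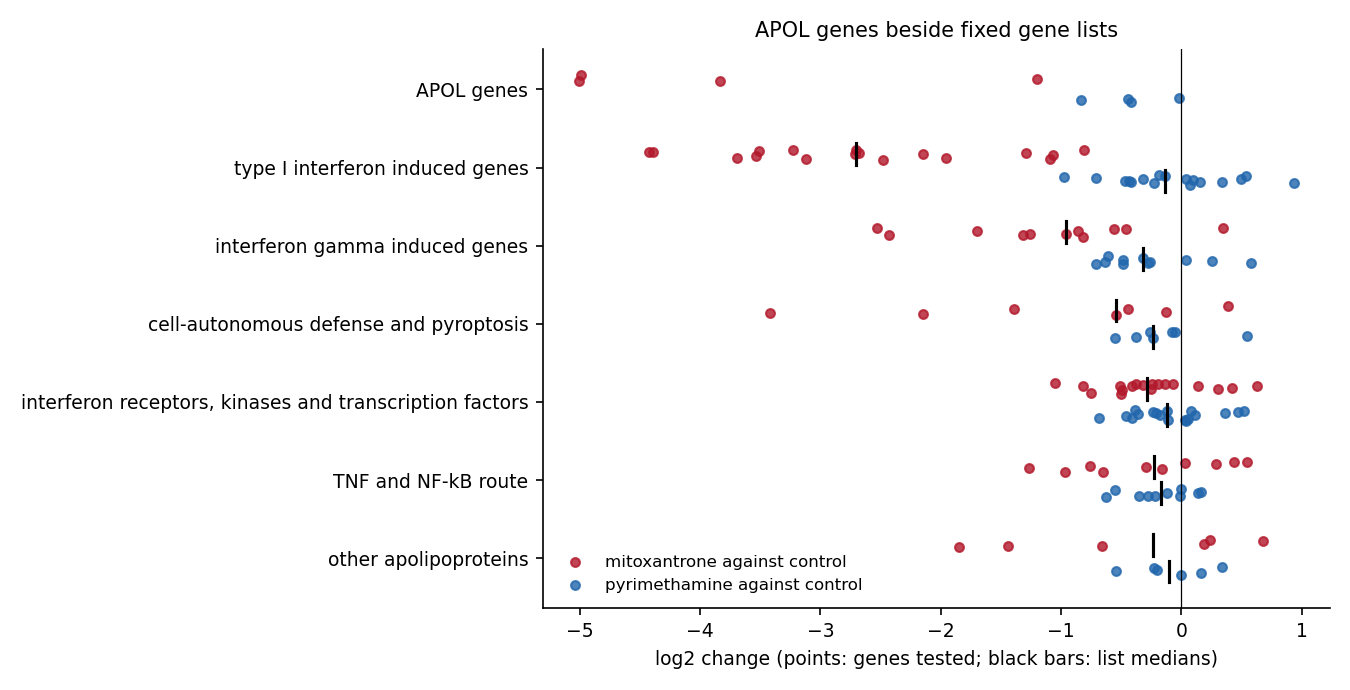
Log2 change of tested genes under mitoxantrone and pyrimethamine against the control for the APOL genes and 6 gene lists, each point 1 gene, with black bars for the list medians. Type I interferon induced genes have a median of -2.71 under mitoxantrone and -0.14 under pyrimethamine. Nothing is read from the place of the APOL genes beside the lists under mitoxantrone, since that change chose the family.

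Binding partners of the family and other apolipoproteins were counted in the same way. Of 6 genes for the trypanosome lytic factor and for proteins known to bind family members, 3 were tested. The partners HPR, HP and APOA1 of the lytic particle had means of at most 1.46 normalized counts in any group. NCS1, a calcium sensor that binds APOL3, and VAMP8, a vesicle fusion protein linked to APOL1, fell under mitoxantrone with -0.38 and -0.36 and rose under pyrimethamine by 0.25 and 0.32, and PI4KB, a lipid kinase gene, fell with both drugs, with -0.23 and -0.21. Of 18 other apolipoprotein genes, which are not related to APOL genes by sequence, 6 were tested. Under mitoxantrone, 3 fell, APOC1 with -1.85, APOD with -1.44 and CLU, which encodes clusterin, with -0.66, and 3 rose, APOM by 0.67, APOOL by 0.24 and APOO by 0.19, of which the call of APOO was lost with equal library totals. Under pyrimethamine CLU and APOOL rose, by 0.34 and 0.16 (the call of APOOL was lost with equal library totals), and 4 were not called.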

How the data were processed

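RNA-seq of 12 KYSE70 libraries was used as 1 deposited table of normalized counts per gene, a signal that the authors made from reads. Per the submitters' processing notes the tools were featureCounts 1.5.1, STAR 2.6.90c, cutadapt 1.12 and FastQC 0.11.5, and the builds hg38 and mm10 are listed there without roles. The values were read counts divided by a factor per library: 100% came out as whole reads within 0.01 of a read in every library, and the factors equal median-of-ratios factors. Whether counting used strand is not given in the sources used here. Gene positions are those of GENCODE 29 on GRCh38, which held 58611 of the 58884 gene identifiers.

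Here log2(value + 1) was fitted with limma 3.58.1 (R 4.3.3, trended eBayes, 3 groups, no covariates) over 16950 genes, p-values were adjusted by Benjamini-Hochberg over all of them and calls were made at 0.05. The code was tested on simulated data. limma called 9042 genes for pyrimethamine and 11745 for mitoxantrone against the control. On the whole reads edgeR 4.0.16 called 9286 and 11765, and DESeq2 1.42.0 called 9318 and 11834. Other alternatives were other pseudocounts, filters, scalings and variance settings, each comparison fitted on its own 8 libraries, the replicate number as a block and each library left out. Member ratios were compared by exact permutation. Floors cover counting error only.

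The members and the gene lists were chosen with earlier results of these data known. Named genes are the 5 members, APOL5 and APOLD1, the genes STAT2, IRF1, IRF9, JAK1 and JAK2 (1 further gene of this rule is not reported here), the 4 tested genes of each list with the largest mitoxantrone change, the 5 genes nearest to APOL1 and 2 nearest to each other tested member, and protein-coding genes that start within 300 kb. Genes listed by name to complete a small count, GBP5 and CIITA among them, were named after their values were seen. The member ratios and the scalings of the lists and neighbours were also added after the data had been seen.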

Additional observations from a re-analysis of the deposited data

Results flagged for a closer look

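Among the 12 groups of 4 libraries of the 4 genes that passed the filter, 1 held a library far from the others, where chance gives about 1 in 20. APOL1 in mitoxantrone replicate 2 was at 3.82 normalized counts (4 reads), below the 6.18 to 6.28 of the other 3 mitoxantrone libraries (5 to 7 reads). Replicate 3 had 5 reads against the 4 of replicate 2, and at so few reads the chance of 1 in 20 does not hold. APOL4 was also checked, for which that chance does not apply either: its mitoxantrone and control groups are at 0 throughout, and a single read among libraries at 0 always stands apart. APOL4 in pyrimethamine replicate 2 was at 0.985 normalized counts, which is its 1 read, against 0 in the other 3 pyrimethamine libraries.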

How the results depend on the processing

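For pyrimethamine against the control, APOL6 kept its direction and its call in all 25 alternatives. The number of members called, 1 in the fit reported, was 2 with a pseudocount of 10, with equal library totals, with quantile normalization and without a variance trend. In these settings 4630, 5506, 4837 and 4367 of the 16950 genes were called lower, in this order, against 4565 in the fit reported. The number of members was 3 with only the 8 libraries compared, in edgeR and in DESeq2, where 28.6%, 28.2% and 27.2% of all genes were called lower. It was 1 to 2 with each library left out. It was 2 without pyrimethamine replicate 4 and without mitoxantrone replicate 2, where 4309 and 4584 genes were called lower. APOL1 passed the threshold at -0.42 with a pseudocount of 10, -0.50 with equal library totals, -0.52 with quantile normalization, and -0.45 both without a variance trend and with the 8 libraries. APOL1 also passed at -0.45 in edgeR and -0.44 in DESeq2. With each library left out APOL1 ran between -0.54 and -0.37, and it passed without pyrimethamine replicate 4 (limma adjusted p = 0.0479) and without mitoxantrone replicate 2 (limma adjusted p = 0.0348). APOL3 passed at -0.42 with the 8 libraries, -0.43 in edgeR and -0.41 in DESeq2, and ran between -0.48 and -0.36 without passing when single libraries were left out. APOL2 changed sign, to 0.022, with upper-quartile rescaling, and passed in no alternative. The cause of these shifts was not tested.

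The replicate numbers did not pair the libraries: 12 same-number pairs correlated at -0.0133 to 0.0295, and the own number was the highest in 8 of 24 cases. With the replicate block 9057 genes were called for pyrimethamine and 11749 for mitoxantrone against the control, and APOL1 had a limma adjusted p of 0.0652, APOL3 of 0.228 and APOL6 of 6.58e-04. Under mitoxantrone the log2 change ran, over libraries left out, between -5.07 and -4.85 for APOL1, -5.38 and -4.71 for APOL3, -4.04 and -3.65 for APOL6 and -1.23 and -1.19 for APOL2. The value of APOL1 under mitoxantrone rests on 4 to 7 reads a library.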
